A study of Mus musculus with 5 samples.

Results

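Interleukins and their receptor chains were examined with an nCounter panel of cancer immunity genes in live CD45- cells of melanomas grown from B16.OVA, a mouse line that carries ovalbumin. The genes were taken by name: of 750 endogenous probes, those whose symbol begins with Il and a digit numbered 59, of which 28 were ligands, 29 receptor chains and 2 secreted antagonists. Tumors were grown under the skin of C57BL/6 mice of genotype FoxP3YFP-Cre (WT, n = 3) or Prdm1fl/flFoxP3YFP-Cre (KO, n = 2). In KO mice the recombinase is driven from the Foxp3 locus and removes Prdm1, which encodes Blimp1, in Foxp3+ regulatory T (Treg) cells. WT mice carry the same Cre without the floxed alleles. Both groups received NP-OVA into the peritoneum, in CFA at day 0 and in IFA at day 7, and the sort was made when a tumor measured up to 1.5 cm3. The Treg cells that lose Blimp1 are CD45+ and were left out by the sort, so the comparison asks how the other side of the tumor differed between the genotypes. The labels name samples rather than animals, and the tests therefore measure the spread between these samples.

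Interleukins are secreted proteins through which leukocytes, stroma and tumor cells signal to each other, and most act at very low amounts. Their receptors are built from several chains: a chain that binds 1 or a few ligands, and a signaling chain shared by a whole family, such as gp130 (encoded by Il6st), the common gamma chain (Il2rg) or the IL-1 receptor accessory protein (Il1rap). Chains of the IL-1 and IL-17 families pass the signal through adaptor proteins to NF-κB, and those of most other families through JAK kinases and STAT factors. A response to a ligand generally needs all chains of its receptor.

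Each sample was read against its own negative control probes, whose mean plus 2 SD was taken as background (13.9, 13.1 and 14.6 raw counts in WT 1, 2 and 3, and 14.8 and 17.7 in KO 1 and 2). A total of 16 of the 59 genes (27.1%) lay above background in at least 2 samples, against 401 of 750 endogenous probes (53.5%). Above background in all 5 samples were 12 of the 59 (20.3%) and 325 of the 750 (43.3%). The 59 probes together held 0.612%, 0.567% and 0.588% of endogenous counts in the WT samples against 0.629% and 0.545% in KO, so the groups overlapped in this share. Among ligands, 5 of 28 (17.9%) passed in at least 2 samples, namely Il7, Il15, Il17b, Il18 and Il23a. Among receptor chains, 11 of 29 (37.9%) passed, namely Il1rap, Il2rg, Il3ra, Il4ra, Il6ra, Il6st, Il11ra1, Il12rb1, Il13ra1, Il15ra and Il17ra. Both secreted antagonists fell short, Il1rn, which blocks the IL-1 receptor, and Il22ra2, a soluble binding protein for IL-22.

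**Figure D1:**
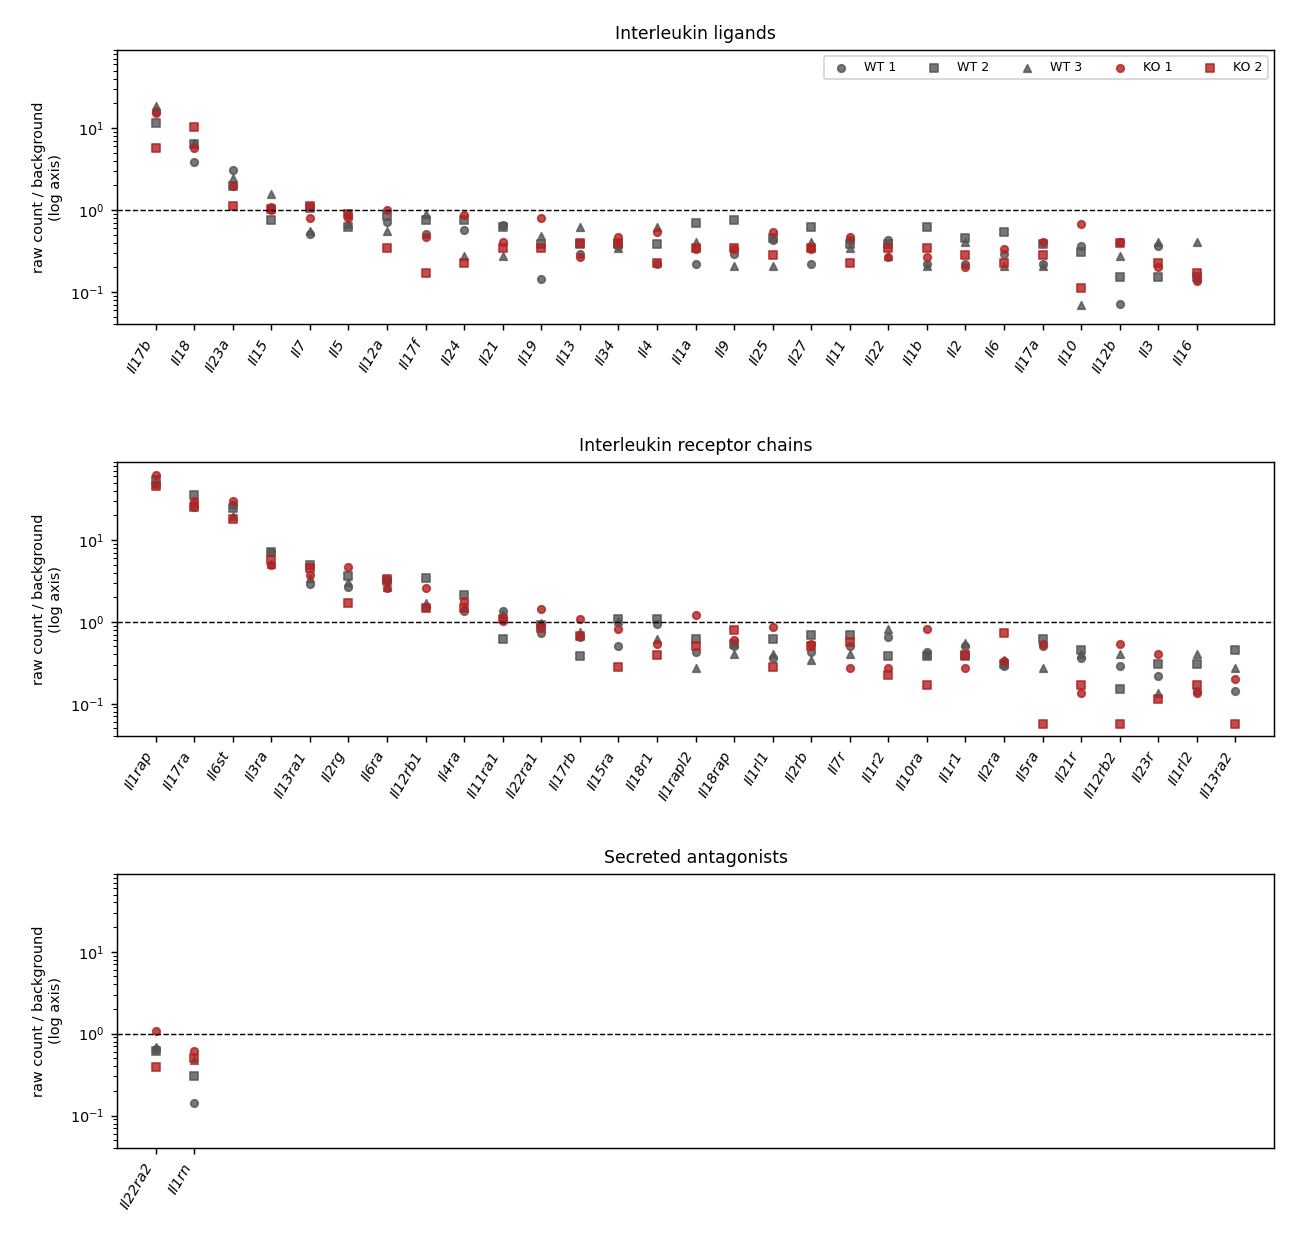
Raw count of each interleukin probe divided by the background of the same sample (log axis), with ligands, receptor chains and antagonists in separate panels and genes ordered by mean raw count. Each point is 1 sample (gray, WT; red, KO) and the dashed line marks background; 37 genes lie at or under the line in all 5 samples.

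A total of 37 of the 59 genes were above background in no sample, against 302 of 750 endogenous probes. Raw counts of the 37 lay between 1 and 16. Summed over the 5 samples they reached 15 to 58 counts (median 28), while the 8 negative control probes reached 26 to 61 (median 42). None of the 37 exceeded the highest negative control and 14 were under the lowest, so no level can be given for them, and they were left out of the test of KO against WT. The ligands in this group were Il1a, Il1b, Il2, Il3, Il4, Il5, Il6, Il9, Il10, Il11, Il12b, Il13, Il16, Il17a, Il17f, Il19, Il21, Il22, Il24, Il25, Il27 and Il34. Il10, the anti-inflammatory cytokine made by many Treg cells, had 5, 4 and 1 raw counts in the WT samples against 10 and 2 in KO. Il6, a ligand of the gp130 system, had 4, 7 and 3 raw counts in the WT samples against 5 and 4 in KO. Il1b, a main inflammatory cytokine of myeloid cells, had 3, 8 and 3 raw counts in the WT samples against 4 and 6 in KO. The type 2 cytokines Il4 and Il13, which lie next to each other in the mouse genome, had 3 to 9 and 4 to 9 raw counts.

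The receptor chains in the group were Il1r1, Il1r2, Il1rl1, Il1rl2, Il2ra, Il2rb, Il5ra, Il7r, Il10ra, Il12rb2, Il13ra2, Il18rap, Il21r and Il23r. Il1r1, the chain that binds IL-1, had 7, 5 and 8 raw counts in the WT samples against 4 and 7 in KO. It belongs to a run of 6 receptor genes that stand side by side in the RefSeq gene order (Il1r2, Il1r1, Il1rl2, Il1rl1, Il18r1 and Il18rap), and none of the 6 lay above background in 2 samples. Il2ra and Il2rb, the chains that join the common gamma chain in the IL-2 receptor, had 4 to 13 and 5 to 9 raw counts. No member of the IL-10 family, 7 genes on this panel, passed in 2 samples.

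A further 6 of the 59 genes crossed the line in 1 sample only, against 47 of 750 endogenous probes. In 5 of the 6 that sample was KO 1, and how many of the 47 probes crossed in KO 1 was not counted. Il22ra1, the binding chain for IL-22, had 10, 12 and 14 raw counts in the WT samples against 21 and 15 in KO. Il17rb, which binds IL-17B and IL-25, had 9, 5 and 11 raw counts in the WT samples against 16 and 12 in KO. Il12a, a subunit of IL-12, had 15 raw counts in KO 1 and 6 to 11 in the other samples, Il1rapl2, a chain related to Il1rap, had 18 against 4 to 9, and Il22ra2 had 16 against 7 to 10. KO 1 also had the highest housekeeping factor (1.14, against 0.935 to 1.01 in the other samples) and the highest mean of its negative controls (9.75 raw counts, against 6.63 to 9.25). Divided by the housekeeping factor, its background was the lowest (13.0, against 13.9 to 17.5). The most endogenous probes lay above background in KO 1 (399, against 355 to 391). Il18r1, the binding chain for IL-18, crossed the line in WT 2 with 14 raw counts and had 7 to 13 in the others. These genes were not tested.

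For the 16 genes that passed, counts were divided by a factor from the 20 housekeeping probes (normalized counts), and KO was compared with WT by edgeR's quasi-likelihood test over all 401 tested probes. A probe's counts can be set against each other across samples, not against those of another probe. None of the 16 genes had an unadjusted p under 0.05, against 25 of 401 tested probes (6.23%), and none passed an adjusted p of 0.05, as none of the 401 did (0%). Adjusted p-values of the 16 ranged from 0.710 to 0.995, and every 95% interval of a log2 fold change included 0. In KO, 9 of the 16 had a log2 fold change above 0 and 7 below, with a median of 0.01, while over all tested probes 158 were above and 243 below, with a median of −0.07. The ligands had a median of −0.13 (2 above 0 and 3 below) and the receptor chains 0.01 (7 above and 4 below). These 16 entered through their level in either group, so their counts and medians describe the passing genes rather than all 59. In a bulk sample, fewer cells of a type and less RNA per cell cannot be told apart.

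**Figure D2:**
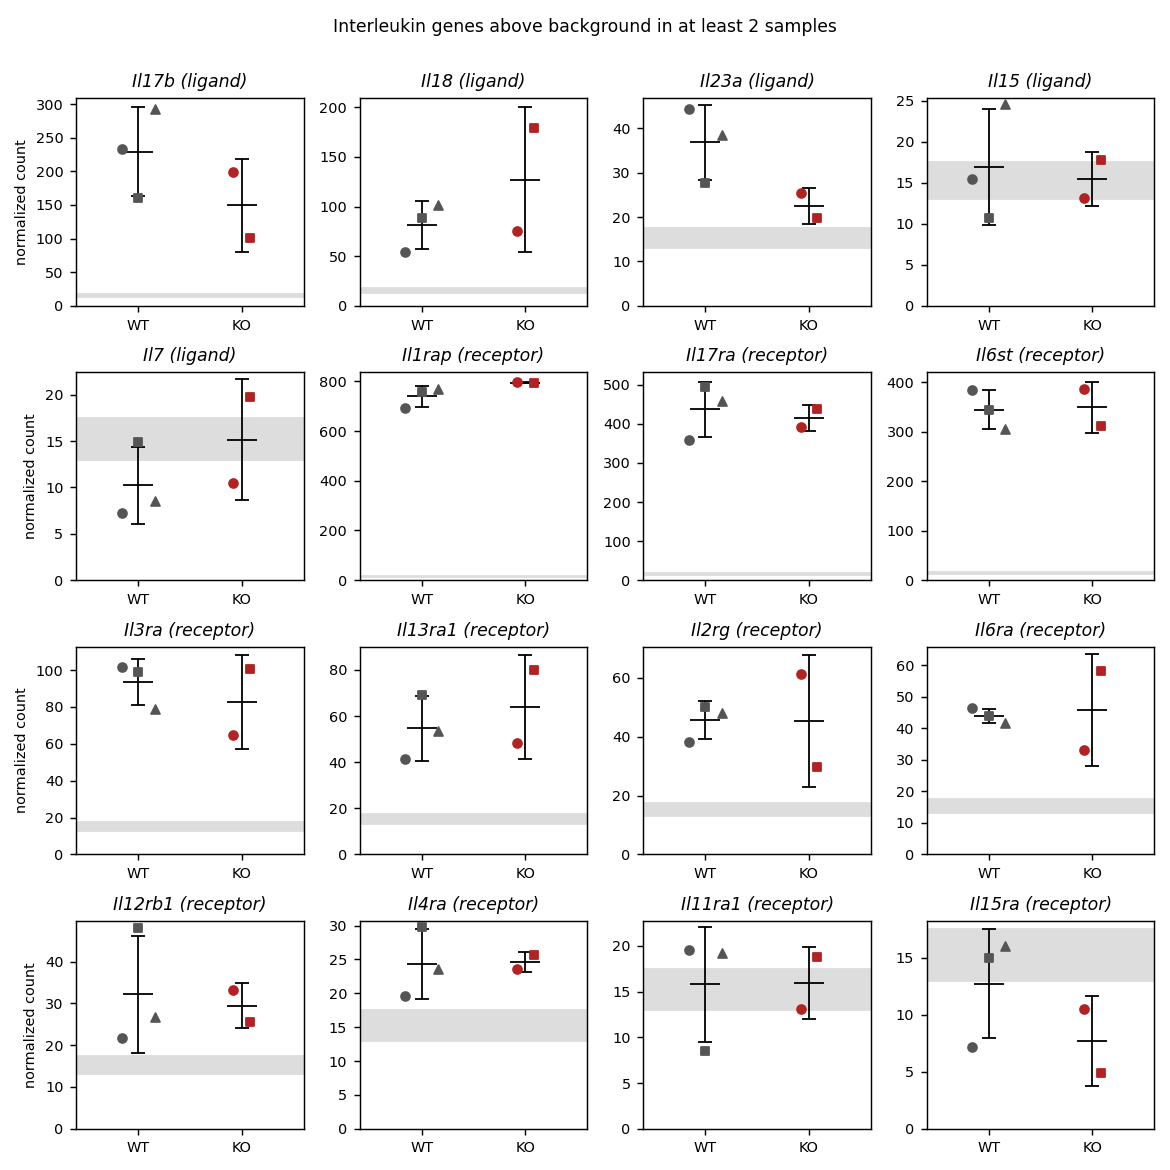
Normalized counts (raw counts divided by the housekeeping factor) of the 16 genes above background in at least 2 samples, with a linear axis from 0 for each gene. Points are samples (gray, WT; red, KO), bars give the mean and SD, and the gray band is the range of background over the 5 samples; only for Il1rap and Il23a do the groups not overlap.

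Among the ligands, Il23a, which encodes the subunit particular to IL-23, was the one whose groups did not overlap. It had 44.3, 27.7 and 38.5 normalized counts in the WT samples against 25.4 and 19.7 in KO. Both KO samples were below every WT sample, by a small margin between WT 2 and KO 1, as in 59 of 401 tested probes (14.7%). The means were 36.8 ± 8.40 (SD, n = 3) in WT and 22.6 ± 3.99 (SD, n = 2) in KO, which gave a log2 fold change of −0.70 (SE 0.30) and a fold of 0.362 to 1.04 at 95% confidence. By edgeR the unadjusted p was 0.065 and the adjusted p 0.710. Its raw counts, 43, 26 and 36 in the WT samples against 29 and 20 in KO, place it less than 2-fold above background in both KO samples, and the groups overlapped when samples were scaled by positive controls, TMM or DESeq2 size factors. Without WT 2 the log2 fold change was −0.87 with an unadjusted p of 0.0364 by edgeR. It was −0.55 without WT 1 (unadjusted p 0.176) and −0.67 without WT 3 (0.137), and −0.90 without KO 1 and −0.54 without KO 2. Il12b, which encodes the subunit that completes IL-23, had 1, 2 and 4 raw counts in the WT samples against 6 and 7 in KO, all under background. Of the IL-23 receptor, Il12rb1 passed and Il23r, with 2 to 6 raw counts, did not.

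Il18, an IL-1 family cytokine that is cut to its active form by caspase-1, had 54.6, 88.5 and 102 normalized counts in the WT samples against 75.3 and 179 in KO. KO 2 was the highest of the 5 samples and KO 1 lay inside the WT range. The log2 fold change was 0.63 (SE 0.46, adjusted p = 0.824 by edgeR), and it was 1.13 without KO 1 and −0.12 without KO 2. Casp1, which encodes caspase-1, had 39.1, 69.3 and 102 normalized counts in the WT samples against 62.1 and 123 in KO, with a log2 fold change of 0.40 (adjusted p = 0.884). It shared with Il18 the order of the samples, from WT 1 through KO 1, WT 2 and WT 3 to KO 2. This was noticed after the values were seen. Casp1 was 1 of 8 among the other 400 tested probes (2%) with that order, beside Bcl6, Ewsr1, Litaf, Mill2, Psma2, Traf6 and Ythdf2. Of the IL-18 receptor, neither Il18r1 nor Il18rap (6 to 14 raw counts) lay above background in 2 samples.

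Il17b, an IL-17 family cytokine, had 233, 161 and 293 normalized counts in the WT samples against 199 and 101 in KO. KO 2 was the lowest sample and KO 1 lay between WT 2 and WT 1, so the groups overlapped. The means were 229 ± 66.1 (SD, n = 3) and 150 ± 69.3 (SD, n = 2), with a log2 fold change of −0.61 (SE 0.40, adjusted p = 0.785 by edgeR). It was −1.19 without KO 1 and −0.20 without KO 2. The spread of Il17b within groups was 23.2 times, and that of Il18 20.1 times, the variance that counting alone gives, whereas for Il23a the ratio was 1.46. Il17a and Il17f, the best known members of the family, were under background in every sample, with 3 to 6 and 3 to 13 raw counts.

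Il15 and Il7 support the survival of lymphocytes and are made largely by cells outside the lymphoid lineage, and here both lay close to background. Il15 had 15.4, 10.7 and 24.6 normalized counts in the WT samples against 13.1 and 17.8 in KO, with WT 3 high, WT 2 low and both KO samples between them. It was above background in 4 samples, all but WT 2, and its log2 fold change was −0.13 (SE 0.42, adjusted p = 0.965 by edgeR), or 0.23 without WT 3. Il7 had 7.21, 14.9 and 8.56 normalized counts in the WT samples against 10.5 and 19.7 in KO. It passed through WT 2 and KO 2 only, and its log2 fold change of 0.55 (SE 0.46, adjusted p = 0.824) was 0.04 without KO 2. Its receptor chain Il7r had 4 to 10 raw counts.

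Among receptor chains, Il1rap, the accessory chain shared by the receptors of IL-1, IL-33 and the IL-36 cytokines, differed little between samples. It had 693, 756 and 770 normalized counts in the WT samples against 797 and 793 in KO. Both KO samples were above every WT sample, as in 36 of 401 tested probes (8.98%), but the margin was small. The means were 740 ± 41.2 (SD, n = 3) and 795 ± 2.92 (SD, n = 2), which gave a log2 fold change of 0.10 (SE 0.11) with an adjusted p of 0.841 by edgeR. The fold was between 0.890 and 1.30 at 95% confidence, and without any 1 sample the log2 fold change stayed between 0.06 and 0.13. Of the chains that Il1rap joins, Il1r1, Il1rl1, which binds IL-33, and Il1rl2, which binds IL-36 cytokines, were under background in every sample.

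Il17ra, the chain shared by receptors of the IL-17 family, had 358, 494 and 459 normalized counts in the WT samples against 392 and 438 in KO, with both KO samples inside the WT range. Its log2 fold change was −0.07 (SE 0.18) with a fold of 0.692 to 1.30, and 0.07 with scaling by positive controls. Il6st, which encodes gp130, had 384, 344 and 305 normalized counts in the WT samples against 386 and 313 in KO, with KO 1 beside WT 1 and KO 2 beside WT 3. This gave a log2 fold change of 0.02 (SE 0.17) with a fold of 0.749 to 1.37. For Il1rap, Il17ra and Il6st the 95% interval lay within 1.5-fold in either direction, as for 121 of 401 tested probes (30.2%). For the other 13 genes a change of 1.5-fold in at least 1 direction was inside the interval.

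The binding chains that pair with gp130 were nearer to background. Il6ra, which binds IL-6, had 46.3, 43.7 and 41.7 normalized counts in the WT samples against 33.3 and 58.2 in KO. The WT samples were close together and lay between the KO samples, so its log2 fold change of 0.05 (SE 0.30) was −0.40 without KO 2 and 0.40 without KO 1. Il11ra1, which binds IL-11, had 19.6, 8.53 and 19.3 normalized counts in the WT samples against 13.1 and 18.7 in KO, was above background in all samples but WT 2, and had a log2 fold change of 0.01 (SE 0.44), or −0.29 without WT 2. The ligands of both chains, Il6 and Il11 (4 to 7 raw counts), were under background.

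Il12rb1, the chain shared by the IL-12 and IL-23 receptors, had 21.6, 48.0 and 26.7 normalized counts in the WT samples against 33.3 and 25.6 in KO. WT 2 was high and the other 4 samples overlapped. The log2 fold change was −0.12 (SE 0.41), but 0.0442 with scaling by positive controls and 0.29 without WT 2. Il12rb2, its partner in the IL-12 receptor, had 1 to 8 raw counts.

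The 3 chains that form the signaling IL-4 and IL-13 receptors were above background in all 5 samples, while Il13ra2, a decoy for IL-13, had 1 to 6 raw counts. Il4ra, which binds IL-4 and signals through STAT6, had 19.6, 29.9 and 23.5 normalized counts in the WT samples against 23.6 and 25.6 in KO, with both KO samples inside the WT range and a log2 fold change of 0.02 (SE 0.27). Il13ra1, its partner in the receptor of non-hematopoietic cells, had 41.2, 69.3 and 53.5 normalized counts in the WT samples against 48.1 and 79.9 in KO, with KO 2 the highest sample. Its log2 fold change of 0.23 (SE 0.35) was −0.18 without KO 2. Il2rg, the common gamma chain and the other partner of Il4ra, had 38.1, 50.1 and 48.1 normalized counts in the WT samples against 61.3 and 29.6 in KO. The KO samples were the highest and the lowest of the 5, their mean of 45.4 stood beside a WT mean of 45.5, and the log2 fold change was −0.62 without KO 1 and 0.43 without KO 2.

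Il15ra, which binds IL-15 and presents it to other cells, had 7.21, 14.9 and 16.0 normalized counts in the WT samples against 10.5 and 4.93 in KO. It passed through WT 2 and WT 3 alone, and its log2 fold change of −0.69 (SE 0.52, adjusted p = 0.824 by edgeR) was −1.34 without KO 1 and −0.27 without KO 2. Il3ra, which binds IL-3, had 102, 99.2 and 79.2 normalized counts in the WT samples against 64.8 and 101 in KO, with KO 1 the lowest sample and KO 2 among the WT samples. Its log2 fold change of −0.18 (SE 0.27) was 0.11 without KO 1 and −0.53 without KO 2. Csf2rb, the common beta chain with which Il3ra signals, had 3 to 14 raw counts and was not tested.

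**Figure D3:**
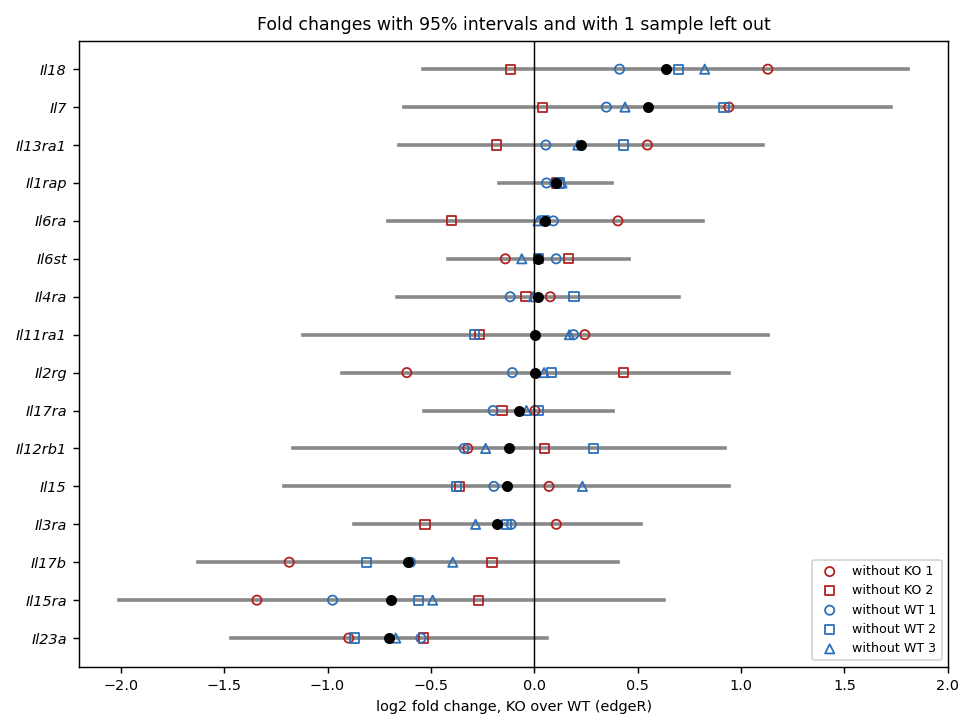
Log2 fold change of KO over WT for the 16 tested genes (edgeR). Black points are the fit on all 5 samples with its 95% interval as a gray bar, and open symbols are fits without 1 sample (red, a KO sample left out; blue, a WT sample); every bar crosses 0 and the open symbols of Il18 run from −0.12 to 1.13.

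The spread between samples of 1 genotype was wide for these genes. The 2 KO samples lay more than 1.5-fold apart in 8 of the 16 genes (50%; Il7, Il15ra, Il17b, Il18, Il2rg, Il3ra, Il6ra and Il13ra1), against 74 of 401 tested probes (18.5%). The lowest and the highest WT sample lay more than 1.5-fold apart in 10 of the 16 (62.5%), against 162 of 401 (40.4%). Mean raw counts were under 50 in 9 of the 16, where counting error alone is large. A mean of at least 50 was reached by 7 of the 59 genes, against 290 of 750 endogenous probes. Of the 8 genes with KO samples apart, Il17b, Il18, Il3ra and Il13ra1 averaged above 50, and Il7, Il15ra, Il2rg and Il6ra below. An exact permutation test of 3 against 2 samples cannot go below a two-sided p of 0.1, so single genes were not tested in that way.

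**Figure D4:**
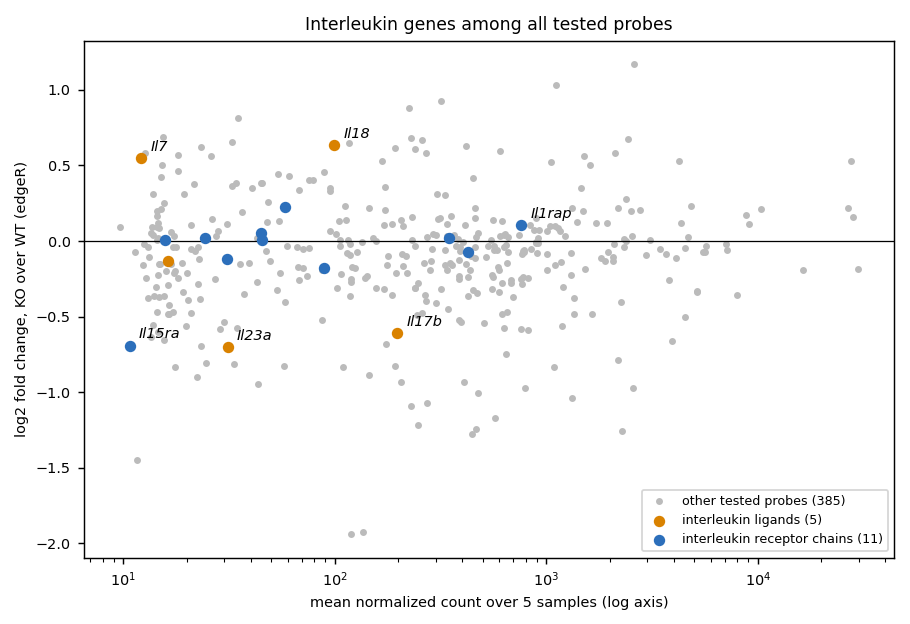
Log2 fold change of KO over WT (edgeR) against the mean normalized count over the 5 samples (log axis) for the 401 tested probes. Gray points are the other 385 probes, orange points the 5 ligands and blue points the 11 receptor chains. Il18 and Il7 lie highest among the interleukin genes and Il23a and Il15ra lowest, all within the range of the gray points. Il15ra entered the test through WT 2 and WT 3 alone, so the filter favored its low position.

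Genes that work with the interleukins but carry other names were counted from lists. Of 8 ligand and receptor partners on the panel, 4 were tested (Csf1, Lif, Osm and Tgfb1), and none had an unadjusted p under 0.05. Csf1, the macrophage growth factor, had 498, 683 and 339 normalized counts in the WT samples against 337 and 194 in KO. KO 1 was nearly level with WT 3, but both KO samples were below every WT sample, as in 59 of 401 tested probes (14.7%). The log2 fold change was −0.93 (SE 0.39), with an adjusted p of 0.710 by edgeR. Ebi3, the partner subunit of IL-27, had 1 to 5 raw counts. Of 18 genes of the adaptor pathway behind IL-1 and Toll receptors, 15 were tested, 6 with a log2 fold change above 0 and 9 below (median −0.05), and none had an unadjusted p under 0.05. The 4 of smallest p were Tab1, Tollip, Irak1 and Myd88. Tab1, a partner of the kinase TAK1, had a log2 fold change of −0.36 (adjusted p = 0.717), Irak1, a receptor-proximal kinase, −0.19, and Myd88, the adaptor itself, −0.32. Tollip was among the 6 above 0, with a log2 fold change of 0.22 (adjusted p = 0.744 by edgeR). It had 1194, 1238 and 1300 normalized counts in the WT samples against 1322 and 1573 in KO. Its KO samples were both above every WT sample, as in 36 of 401 tested probes (8.98%).

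Of 13 genes of the JAK-STAT pathway, 12 were tested, 8 with a log2 fold change above 0 and 4 below (median 0.01), and again none had an unadjusted p under 0.05. Stat6, which carries the IL-4 and IL-13 signal, had 1606, 1736 and 1632 normalized counts in the WT samples against 1780 and 1819 in KO. This gave a log2 fold change of 0.12, with both KO samples above every WT sample, as in 36 of 401 tested probes (8.98%). Stat3, which carries the gp130 signal, had 2122, 3207 and 2483 in the WT samples against 2874 and 3128 in KO, which gave a log2 fold change of 0.20, with both KO samples inside the WT range. Stat2, a factor of the interferon pathway, had the lowest log2 fold change of the list, −1.004 (adjusted p = 0.710 by edgeR). It had 331, 939 and 516 normalized counts in the WT samples against 317 and 276 in KO. Both KO samples were below every WT sample, as in 59 of 401 tested probes (14.7%), with KO 1 just under WT 1.

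Markers of leukocytes were read in the same samples, since many interleukin genes are known best from these cells. Ptprc, which encodes CD45, had 1 to 4 raw counts. None of 6 B cell markers and 1 of 16 T and NK cell markers passed in 2 samples. The summed T and NK cell markers were at 73.8 to 115 normalized counts in the WT samples against 91.9 to 101 in KO. As nearly all of these did not pass, that sum cannot show whether lymphocyte content differed. Of 15 myeloid markers 4 passed, with log2 fold changes above 0 for Cd68 and Lyz2 and below 0 for Fcgr1 and S100a8, and none had an unadjusted p under 0.05. Cd68, a marker of macrophage lysosomes, had 141, 210 and 128 normalized counts in the WT samples against 243 and 246 in KO. Its KO samples were both above every WT sample, as in 36 of 401 tested probes (8.98%). Lyz2, a lysozyme of myeloid cells, had 28.8, 46.9 and 11.8 against 36.8 and 38.5, Fcgr1, an Fc receptor, 14.4, 21.3 and 19.3 against 9.63 and 16.8, and S100a8, a neutrophil protein, 22.7, 16.0 and 20.3 against 14.0 and 21.7. Csf1r, the receptor of Csf1, was not above background in 2 samples, with 13.9 to 15.4 in WT and 9.63 to 9.86 in KO. The sum of the 15 was 258 to 372 in WT and 375 to 388 in KO, and without Cd68 the groups overlapped, at 129 to 162 and 132 to 142. Most markers left in the smaller sum were not above background in 2 samples, so its overlap cannot show whether myeloid content differed. The part of these markers in the interleukin values was not tested. Summed markers of fibroblasts were at 784 to 1839 in WT and 1590 to 1685 in KO. Most of each sum was Fn1 (871, 1358 and 454 against 1274 and 1294). Of the 6 fibroblast markers tested, 3 had a log2 fold change above 0 and 3 below. Summed markers of endothelium were at 1319 to 1622 in WT and 1203 to 1229 in KO, with the defining endothelial genes Pecam1 and Cdh5 under background. Nearly all of each sum was Eng (1012, 1209 and 968 against 907 and 954) and Icam2 (274, 369 and 355 against 298 and 203). Of the melanocyte markers 2 were on the panel, and they went opposite ways. Mcam had 1727, 1916 and 1668 normalized counts in the WT samples against 2684 and 2607 in KO, and S100b 1979, 1987 and 1894 against 1724 and 1849. By edgeR the log2 fold change was 0.58 for Mcam (unadjusted p 0.00299, adjusted p 0.487) and −0.13 for S100b (0.253 and 0.824). The sum of the 2 was 3562 to 3903 in WT and 4408 to 4456 in KO. No marker had a raw count of 0 in any sample.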

How the data were processed

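RNA of sorted CD45- cells (100 ng per sample, 3 WT and 2 KO) was measured by the authors on NanoString's mouse panel for cancer immune profiling. The deposited raw counts cover 750 endogenous, 20 housekeeping, 8 negative and 6 positive control probes, with nothing subtracted or scaled. The authors also deposited a normalized signal, made with nSolver, in which values under 15 were set to 15. No deposited column of sample values was left unused. Endogenous counts summed to 369515, 423472 and 412184 in WT 1, 2 and 3 and to 450207 and 461822 in KO 1 and 2.

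Columns were matched to samples through the code in the labels. Counts were divided by a factor from the housekeeping probes, their geometric mean (relative factors 0.971, 0.938 and 0.935 in WT, 1.14 and 1.01 in KO). Probes above the mean plus 2 SD of the negative controls in at least 2 samples were tested on raw counts with edgeR 4.0.16 in R 4.3.3 (quasi-likelihood, genotype as the only term), with Benjamini-Hochberg adjustment over all tested probes and a threshold of 0.05. Alternatives were TMM, DESeq2 1.42.0 size factors and test, positive controls, no filter, a mean raw count of at least 50, limma 3.58.1 on log2 of the count plus 1, the methods' t-test, background subtraction, the deposited signal, a replicate block and each sample left out. The fit was tested on simulated data.

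Genes were named by rule: each interleukin probe above background in at least 2 samples with all its values, those above in 1 sample with that sample, and the others as a group. Other genes come from lists of partners and pathways. 1 gene of these lists is not reported here. The genes and lists were chosen with earlier results of these data known. Of the 59 probes, 57 had their accession and symbol in RefSeq's GRCm38.p6 table, all but Il4ra and Il12b. That table gave gene order only, as the files name no build. The precision of a value is limited by counting error at low counts.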

Additional observations from a re-analysis of the deposited data

How the results depend on the processing

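No interleukin gene passed an adjusted p of 0.05 under any of 16 alternatives, although DESeq2 called 3 of 401 probes. The count at an unadjusted p under 0.05, 0 by edgeR, was 4 with no filter, against 39 of 750 probes. The 4 were Il1r2, Il17f, Il18r1 and Il21r, none above background in 2 samples. The count was 1 with limma, 1 with background subtracted and 1 with the deposited signal, in each case Il23a. It ranged from 0 to 1 with 1 sample left out, 1 without WT 2. The methods' t-test called 27 of 401 probes and 0 after Benjamini-Hochberg adjustment, with 0 interleukin genes in either. For Il23a limma gave a log2 fold change of −0.67 (unadjusted p 0.0486), −1.06 with background subtracted (0.0495) and −0.67 on the deposited signal (0.0485), and none passed after adjustment. The count of genes whose groups did not overlap was 2, and 1 with TMM, 1 with DESeq2 size factors, 1 with positive controls and 1 among probes averaging 50 or more raw counts, each time Il1rap. It was 12 with no filter and ranged from 2 to 9 with 1 sample left out, since fewer samples overlap less. The number of genes above background was 16, and 20 at 1 SD, 12 at 3 SD, 18 against the highest negative control and 14 by the deposited signal. Scaling by positive controls moved the median over all tested probes by 0.14 on the log2 scale.

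Of the 16 genes, 4 (Il7, Il17b, Il1rap and Il23a) kept the direction of their log2 fold change under all alternatives that gave a value. Il15ra, which had entered the test through WT 2 and WT 3 alone, was at 0 by the deposited signal and kept its direction otherwise. The other 11 turned under at least 1 alternative. Scaling by positive controls gave 0.0442 for Il12rb1 and 0.0702 for Il17ra. The replicate block gave 0.23 for Il15, −0.0139 for Il2rg, −0.0248 for Il6ra and −0.0660 for Il6st, and left the count at an unadjusted p under 0.05 at 0. The replicate numbers of WT and KO are not known to pair animals, and deviations of same-numbered samples correlated at 0.29 and 0.00. Il2rg was also at −0.0804 with limma, −0.0804 with the methods' t-test, −0.18 with background subtracted and −0.0603 with the deposited signal. Background subtraction gave −0.0256 for Il4ra and −0.0461 for Il6ra, and the deposited signal −0.0496 for Il11ra1. With 1 sample left out the ranges that included both signs were −0.29 to 0.24 for Il11ra1, −0.34 to 0.29 for Il12rb1, −0.18 to 0.55 for Il13ra1, −0.38 to 0.23 for Il15, −0.20 to 0.0221 for Il17ra, −0.12 to 1.13 for Il18, −0.62 to 0.43 for Il2rg, −0.53 to 0.11 for Il3ra, −0.12 to 0.19 for Il4ra, −0.40 to 0.40 for Il6ra and −0.14 to 0.16 for Il6st. A fit without a KO sample assumes that the other one varies like the WT samples, and the tested probes were kept as they were. The cause of these changes was not tested.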
